A study of Homo sapiens with 10 samples.

Results

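The 10 genes described here encode the core machinery that carries messenger RNA out of the nucleus: the export receptor NXF1 and its partner NXT1, the TREX factors ALYREF and DDX39B, and the THO subunits THOC1, THOC2, THOC3, THOC5, THOC6 and THOC7. They were taken by symbol from a gene table of 241080 loci, of which 54201 carry a symbol, and all 10 had exactly 1 row. All 10 rows had been tested by the authors (status OK). In 8 rows the gene stood alone, THOC5 shared its row with NIPSNAP1, and DDX39B shared its row with ATP6V1G2, the readthrough ATP6V1G2-DDX39B and SNORD84, so the values of those 2 rows belong to several genes at once. The RNA came from the nuclei of HEK293, a human embryonic kidney line that grows attached, opened with detergent and divided into a chromatin pellet extract (CPE, 3 samples) and a soluble nuclear extract (SNE, 3 samples). The labels name no agent for either fraction. Each library was made from total RNA with a stranded kit, and per the study design the 3 preparations were biological replicates. A chromatin pellet with DRB (2 samples) and its mock treatment (2 samples) were also labelled and are not analysed here, since both tables hold only CPE and SNE.

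In the nucleus, the THO complex joins the RNA helicase DDX39B (also called UAP56) and the adaptor ALYREF on transcripts during their synthesis and processing, and the assembly is called TREX. ALYREF and other adaptors then hand the RNA to the heterodimer of NXF1 and NXT1, which passes through the nuclear pore. The values below concern the RNAs that encode these proteins, that is, the relative level of their transcripts within each nuclear fraction, and not the proteins.

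The table holds 1 FPKM value (a read level scaled by how long the transcript is and how deeply the library was sequenced) for each fraction, computed by the authors over the samples of that fraction. No spread between samples could therefore be given, and read depth per sample is unknown. A gene is called lower or higher in CPE where the authors' q, from their Cuffdiff test, was at most 0.05. The authors' scaling sets the zero of the ratio, and the median log2 ratio (CPE over SNE) of the 11388 tested loci that carried a symbol and reached an FPKM of 1 in CPE and in SNE was -1.33 (interquartile range -1.89 to -0.60). The samples are bulk, so each value averages over many nuclei. FPKM is scaled to the depth of each library, and how much RNA each fraction yielded is unknown. A ratio, and a fold derived from it, therefore compares shares within the fractions and not amounts of RNA. The labelled cell type was checked on marker genes: LIN28B, VIM and CDH2 had FPKM values from 9.54 to 50.7 in CPE and from 32.3 to 173.0 in SNE, whereas PAX2, NEFM and NEFL, also listed as markers of the line, stayed under 1 in both. Of 6 markers of other cell types, the blood cell genes HBB, CD3E and PTPRC were listed at 0 or under 0.01 in both fractions. COL1A1, of fibroblasts, stood at 0.958 in CPE and 1.45 in SNE and was not called. ALB, of liver, was listed at 0.373 in CPE and 0 in SNE and was called higher in CPE (q = 0.000706 in the authors' deposited table). The row of INS, shared with IGF2, had 0.0593 in CPE and 0.295 in SNE and was called lower in CPE (q = 0.00134 in the authors' deposited table). The part of other cell types in the export gene values was not tested. The noncoding RNAs NEAT1 and MALAT1, listed beforehand as checks of the fractions, were both called higher in CPE. NEAT1 had 44.6 in CPE and 4.11 in SNE (log2 ratio 3.44 in the authors' deposited table, q = 0.000706). MALAT1 had 114.5 in CPE and 41.9 in SNE (log2 ratio 1.45 in the authors' deposited table, q = 0.000706). The purity of the fractions was not tested further.

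Of the 10 export genes, 6 were lower in CPE, 4 were not called and 0 were higher. The 6 were NXT1, THOC7, ALYREF, THOC6, THOC5 (in its shared row) and THOC3, and the 4 were DDX39B (in its shared row), NXF1, THOC2 and THOC1. Among all tested loci with a symbol 39.3% were lower and 1.83% were higher, and among the 11388 expressed ones, to which all 10 genes belong, 52.3% were lower and 1.28% were higher. The share among the export genes thus lay near that of other expressed genes, and nothing particular to the group is read from it. Their median log2 ratio of -1.52 was likewise near the -1.33 of those loci, with 4 genes above and 6 below it. By Cuffdiff's unadjusted p, 0 of the 10 were higher in CPE at p under 0.05, and among the uncalled genes 1, NXF1, was lower at that threshold.

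**Figure D1:**
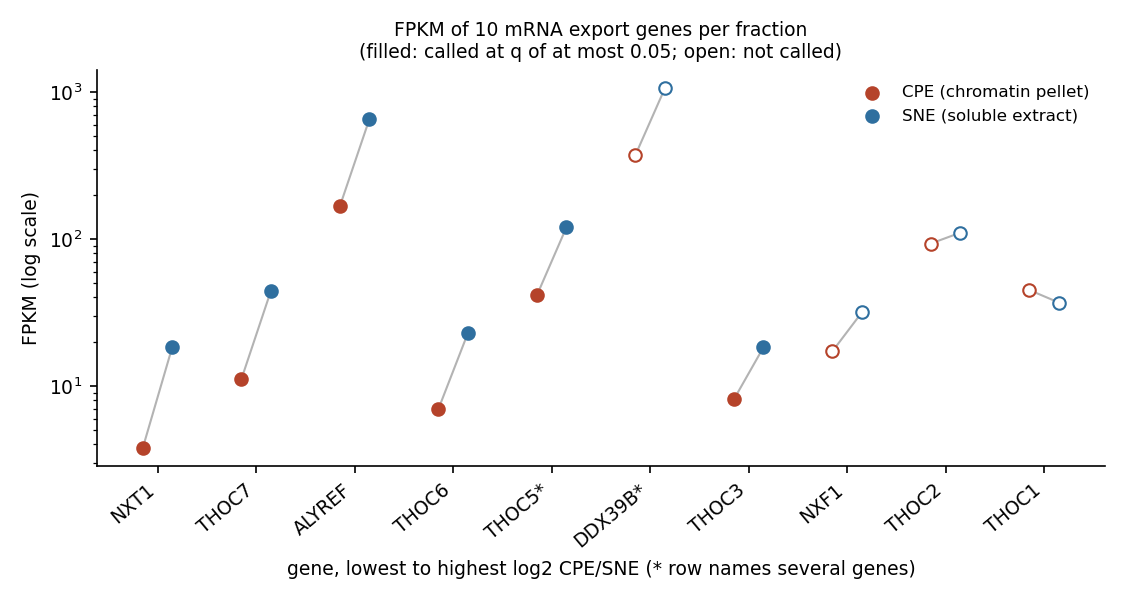
FPKM on a log axis in CPE (red, left point of each pair) and SNE (blue, right point) for the 10 export genes, ordered from the lowest to the highest log2 ratio of CPE over SNE, with 1 value per fraction and no error bar because the authors deposited no values per sample. Filled points were called at q of at most 0.05 and open points were not, and the CPE point lies below the SNE point for 9 genes and above it for THOC1.

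The levels of the genes spanned a wide range. Because FPKM is set per transcript length, levels can be compared between genes, but only roughly where rows are shared or genes have close copies. From lowest to highest in SNE the order was THOC3, NXT1, THOC6, NXF1, THOC1, THOC7, THOC2, the THOC5 row, ALYREF and the DDX39B row. The DDX39B row includes the small nucleolar RNA SNORD84, whose part was not tested, and copies of THOC3 and NXT1 could take some of their reads. The lowest and highest FPKM in SNE were 18.3 and 1059. In CPE they were 3.80 for NXT1 and 371.1 for the DDX39B row. Neighbours in this order could not be compared against a spread. ALYREF and the DDX39B row lay at percentiles 98.4 and 99.2 of summed FPKM among the 11388 loci, and NXT1, THOC3 and THOC6 at 42.6, 47.9 and 51.9. The listed levels of these rows were thus not close to equal.

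The partners of the export receptor had different values. NXT1, the small partner that binds the NTF2-like domain of NXF1, had an FPKM of 3.80 in CPE and 18.5 in SNE. In the authors' deposited table this is a log2 ratio of -2.28, or 4.86-fold lower in CPE (q = 0.000706, the smallest q in the table), the lowest ratio of the 10 genes. NXF1, which binds RNA and the pore proteins directly, had 17.2 in CPE and 31.7 in SNE. Its log2 ratio of -0.89 in the authors' deposited table was not called (p = 0.0153, q = 0.0997). NXF1 transcripts are known to include a form that retains an intron and is itself exported through an element in that intron, and the gene table does not separate such forms. The difference between the ratios of NXT1 and NXF1 was not tested, since the table gives no error for it. NXT1 has a processed pseudogene, NXT1P1, that matches its transcript at 96.2% over 315 bases, so part of its reads could be assigned elsewhere. ALYREF and DDX39B also have processed pseudogenes on other chromosomes, AC005102.1 (87.9% over 456 bases) and AP001994.1 (90.0% over 827 bases), and the same limit applies to their values.

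ALYREF, the adaptor that recruits NXF1 to the RNA, was the most abundant export gene with a row of its own. It had an FPKM of 166.6 in CPE and 652.5 in SNE, a log2 ratio of -1.97 in the authors' deposited table (3.92-fold lower in CPE, q = 0.000706). DDX39B, the helicase that helps load ALYREF onto the RNA, shared the row of highest FPKM, with 371.1 in CPE and 1059 in SNE. That row was not called, at a log2 ratio of -1.51 in the authors' deposited table (p = 0.161, q = 0.473), although THOC3 and the paralog DDX39A were called at ratios nearer 0. DDX39A, a helicase with the same activity and a row of its own, had 32.6 in CPE and 74.9 in SNE, a log2 ratio of -1.20 in the authors' deposited table (q = 0.000706). Per transcript length, the DDX39B row thus had the higher level of the pair in both fractions, with ATP6V1G2 and SNORD84 included in it.

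The DDX39B gene carries 2 small nucleolar RNAs of the box C/D class, which guide methylation of other RNAs, and they are shown because SNORD84 is counted in the DDX39B row while SNORD117 has a row of its own. In GENCODE 29 both lie inside DDX39B on the minus strand and outside the exons of its principal transcript, SNORD117 at GRCh38 chr6:31536374-31536449 and SNORD84 at GRCh38 chr6:31541101-31541178. The sequences run 5′ to 3′ as in the GENCODE transcripts, and capitals mark the first TGATG, the core of the C box, and the last CTGA, the D box.
SNORD117: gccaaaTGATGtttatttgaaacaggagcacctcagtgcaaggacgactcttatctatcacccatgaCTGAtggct
SNORD84: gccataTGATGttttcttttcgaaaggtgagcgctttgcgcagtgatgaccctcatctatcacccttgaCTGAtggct
In both RNAs the C box core begins at base 7, near the 5′ end. The D box lies close to the 3′ end and begins at base 68 of 76 in SNORD117 and base 70 of 78 in SNORD84. Only the transcript strand was searched, the last CTGA overlaps a further TGATG in both RNAs, and TGATG within the first 15 bases with CTGA within the last 15 was found in 81.3% of the 246 GENCODE transcripts named SNORD of 60 to 100 bases and in 0 of the 149 named SNORA. The pair shared 60 of 79 aligned positions (75.9%). SNORD117 was listed at an FPKM of 962.2 in CPE and 26.6 in SNE, a log2 ratio of 5.18 in the authors' deposited table, but with too little data for the authors' test (status LOWDATA), so it is no call. The row that includes its host gene leaned the other way, at -1.51. No separate value exists for SNORD84, and its part in the DDX39B row was not tested.

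Of the 6 subunits of the THO complex, 4 were lower in CPE (THOC5 in its shared row) and 2 were not called. Among expressed loci with a symbol 52.3% were lower, and with 6 genes nothing particular to the complex is read from the count. Their log2 ratios ranged from -2.0 to 0.28. THOC7, a small subunit that pairs with THOC5, had an FPKM of 11.1 in CPE and 44.3 in SNE (log2 ratio -2.0 in the authors' deposited table, 4.01-fold lower in CPE, q = 0.000706). THOC6, a WD-repeat subunit found in animals and plants but not in budding yeast, had 6.95 in CPE and 22.9 in SNE. Its log2 ratio was -1.72 in the authors' deposited table (3.29-fold lower in CPE, q = 0.000706). Both ratios lay on the soluble side of the median of -1.33 of expressed loci with a symbol. Among genes of similar genomic span, however, THOC7 lay at percentile 18 and THOC6 at 57.2.

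The row of THOC5, the subunit that contacts THOC7, and of NIPSNAP1, a mitochondrial protein gene, had an FPKM of 41.3 in CPE and 119.9 in SNE. Its log2 ratio in the authors' deposited table was -1.54 (2.90-fold lower in CPE, q = 0.000706). In GENCODE 29 the genes lie on the same strand and overlap by 409 bases, and which of them gave the reads cannot be told from the row. THOC3, the WD-repeat subunit that sits with THOC1 and THOC2 in the core, had 8.10 in CPE and 18.3 in SNE. It was 2.26-fold lower in CPE, a log2 ratio of -1.18 in the authors' deposited table (q = 0.000706), and with the ratio taken relative to that median of -1.33 it became 0.16. THOC3 has a near-identical copy, the transcribed pseudogene AC106795.1 on the same chromosome, which matches its transcript at 99.6% over 1571 bases, so its value is uncertain.

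THOC1 and THOC2 had the highest ratios of the 10 genes. THOC1, which in budding yeast corresponds to Hpr1, had an FPKM of 44.9 in CPE and 36.9 in SNE, the only member with the higher value in CPE. Its log2 ratio of 0.28 in the authors' deposited table was not called (p = 0.317, q = 0.499). THOC2, the large scaffold of the complex, had 93.1 in CPE and 110.3 in SNE. It was not called either, at a log2 ratio of -0.24 in the authors' deposited table (p = 0.598, q = 0.632). Against the 11388 expressed loci with a symbol, the ratios of THOC1 and THOC2 lay at percentiles 91.1 and 83.6, that of NXF1 at 66.5 and that of NXT1 at 9.42. A missed threshold does not show that the fractions held equal amounts. Differences between subunits were not tested.

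**Figure D2:**
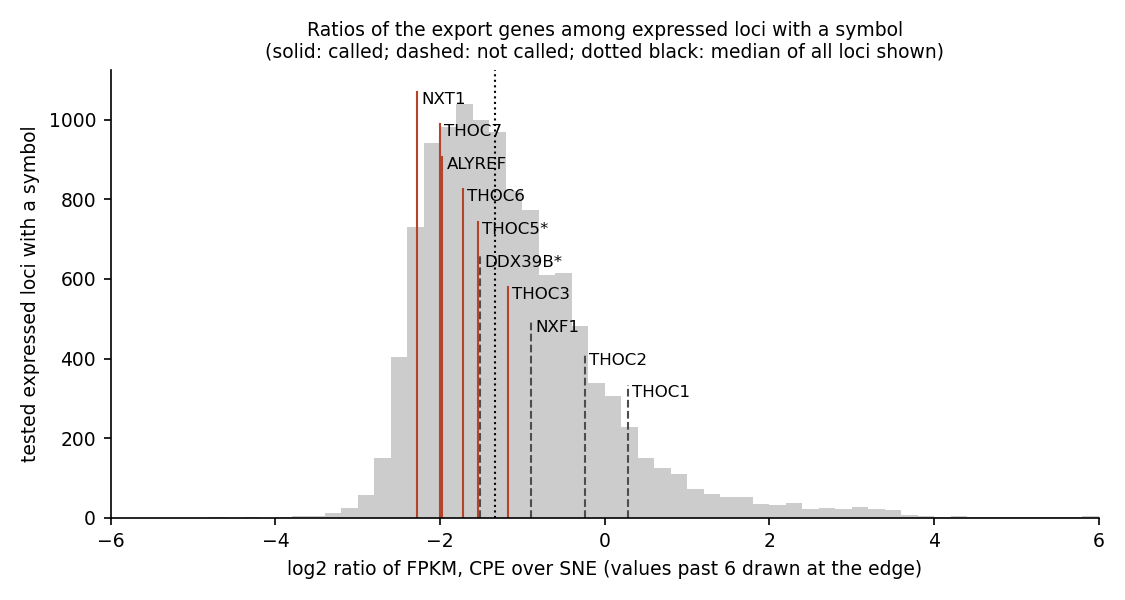
Number of tested expressed loci with a symbol (11388 loci) by log2 ratio of CPE over SNE, with the 10 export genes as vertical lines (solid where called, dashed where not). The median of the loci shown (dotted) is -1.33, the members run from -2.28 for NXT1 to 0.28 for THOC1, and line heights carry no value.

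Gene length moved with the ratio across the table. Over 8094 protein-coding loci with 1 symbol, Spearman's rho between the genomic span of the principal transcript and the log2 ratio was 0.41, a description across genes that share the same libraries. The median log2 ratio was -1.84 in the shortest of 5 equal groups by span (up to 11.1 kb, 77.5% lower in CPE) and -0.83 in the longest (from 98 kb, 25.5% lower in CPE). NXT1 (4.04 kb), ALYREF (3.74 kb), THOC6 (3.72 kb) and THOC3 (8.77 kb) belong to the shortest group, and THOC2 (132.0 kb) to the longest. Set within their own span group, the ratios of ALYREF, THOC6 and DDX39B lay at percentiles 42.1, 57.2 and 55.6. THOC7 (30.0 kb) and NXT1 lay at the soluble end, at percentiles 18 and 20.8. The ratio of THOC1 (53.5 kb) was at percentile 96.3 of its group, whose median was -1.24, and those of NXF1 (14.1 kb) and THOC3 at 81.0 and 80.4. THOC2 was at percentile 75.4. In all, 6 of the 10 genes lay above and 4 below the median of their own span group. This tally depended on the span used, which was chosen after the values were seen. By the span of the whole gene it was 5 above and 5 below, because THOC3, whose gene spans 117.0 kb, then fell in the longest group at percentile 35.0, under its median of -0.83. By the median span of the coding transcripts it was 7 above and 3 below, with THOC5 at percentile 53.6. The part of length in any single value was not tested.

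**Figure D3:**
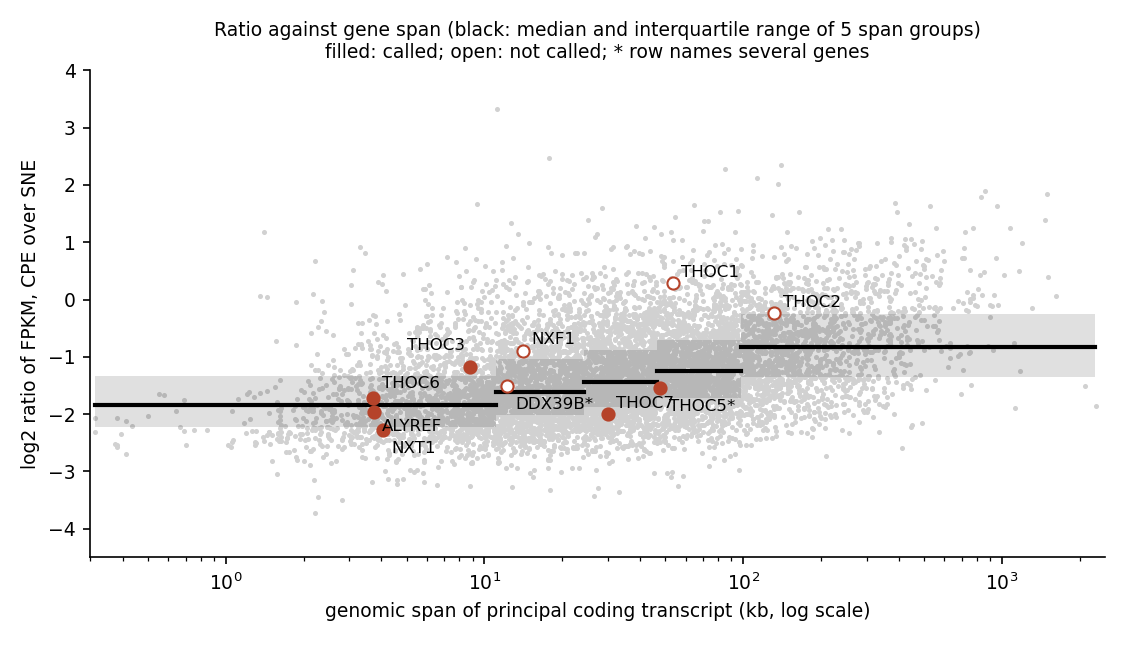
Log2 ratio of CPE over SNE against the genomic span of the principal coding transcript (kb, log axis) for 8094 protein-coding loci (grey points) and the 10 export genes (red; filled where called, open where not). Black bars and shading give the median and interquartile range in 5 groups of loci by span, with medians from -1.84 to -0.83, and by this span THOC1, NXF1, THOC3 and, narrowly, THOC2 sit above the shading of their groups while THOC7 and NXT1 sit just below it.

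Neighbouring and antisense genes touch several of these rows. In GENCODE 29, THOC1 overlaps USP14 on the other strand by 110 bases at their ends, THOC6 overlaps HCFC1R1 on the other strand by 260 bases, and the antisense genes THOC7-AS1 and DDX39B-AS1 lie over 1175 and 145 bases of their partners. USP14 had an FPKM of 12.3 in CPE and 27.7 in SNE and was not called (log2 ratio -1.18 in the authors' deposited table, q = 0.101). HCFC1R1 had 3.90 in CPE and 18.4 in SNE and was lower in CPE (log2 ratio -2.24 in the authors' deposited table, q = 0.000706). DDX39B-AS1 was listed at 0.939 in CPE and 0.619 in SNE, and THOC7-AS1 at 0.0119 in CPE and 0 in SNE, both far under the values of their partners. The sources used here do not say whether strand was used in counting.

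The table also lists loci without a symbol in the regions of the export genes. Its coordinates are those of a whole bundle of loci and not of each locus, so these loci may lie in introns, on the other strand or beside the gene. The regions run from 13.9 kb for NXT1 (hg19 chr20:23324922-23338846) to 133.6 kb for THOC2 (hg19 chrX:122733286-122866906). Of 85 tested loci without a symbol in the 10 regions, 83 had a ratio above 0 (97.6%), 8 were called higher (9.41%), 77 were not called and 0 were lower. Over all 174660 tested loci without a symbol, 97.3% had a ratio above 0, 9.45% were higher and 0.63% were lower, so the export gene regions lay at the background in this respect. By Cuffdiff's unadjusted p under 0.05, too, 0 of the 85 were lower. Their median log2 ratio of 2.59 was under the 3.33 of all such loci.

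In CPE the summed FPKM of these loci was highest in the regions of THOC2 and THOC1, at 174.0 and 96.4, against 20.1 and 12 in SNE, and the DDX39B region followed with 88.5 in CPE and 58.1 in SNE. Such sums grow with the number of loci listed. In the THOC1 region (hg19 chr18:158383-268050, which also holds USP14) the 12 tested loci had FPKM values from 2.69 to 20.0 in CPE and from 0.329 to 3.13 in SNE. All 12 had a ratio above 0, with a median log2 ratio of 3.07, and 2 were higher in CPE. In the THOC2 region 26 tested loci had FPKM values from 1.81 to 36.6 in CPE and from 0.0414 to 2.81 in SNE, with a median log2 ratio of 3.15 and 2 higher in CPE. In the NXT1 and THOC7 regions the loci without a symbol were much lower, with at most 2.90 and 1.69 in CPE and at most 0.502 and 0.291 in SNE, and again 2 were higher in CPE in each. In the 10 regions all 85 tested loci without a symbol had a ratio above that of the export gene row itself, including 1 listed at 0 in SNE. Over all 174660 tested loci without a symbol 97.3% had a ratio above 0, while 9 of the 10 export gene rows lay below 0. Such an outcome was thus close to given, and nothing particular to these regions is read from it.

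**Figure D4:**
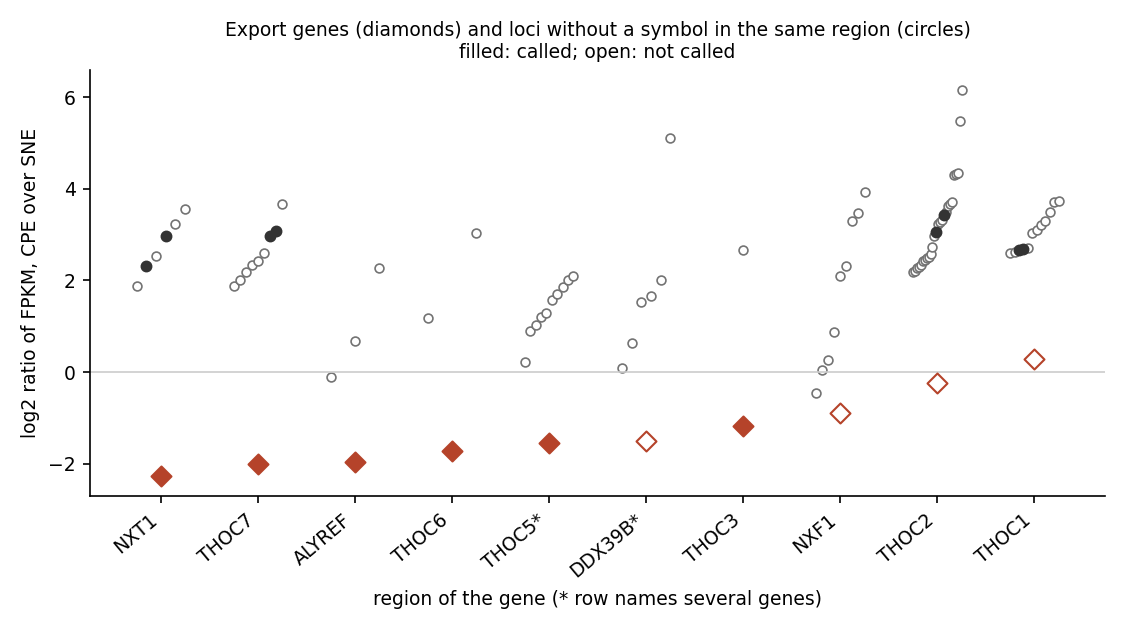
Log2 ratio of CPE over SNE for each export gene (diamonds) and for tested loci without a symbol in the same region (circles), filled where called at q of at most 0.05 and open where not. The diamonds run from -2.28 to 0.28 and lie under all circles of their region; 1 locus in the THOC5 region, listed at 0 in SNE, has no finite ratio and is not drawn.

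THOC2 was the export gene whose isoforms could be read. A second deposited table lists isoforms, and its values summed to the gene value (within 1% in both fractions) for all 545 genes checked on chromosome X but for 0 of 195 on chromosome 11, so its identifiers and values belong together only in part of the table. THOC2, on chromosome X, was the only one of the 10 genes with isoform rows under its symbol, 30 in number, which summed to 93.1 in CPE and 110.3 in SNE. Of these 6 were tested by Cuffdiff and 0 were called, where 16.2% of tested isoforms were called among all genes whose isoforms sum correctly. By Cuffdiff's unadjusted p, 1 isoform was under 0.05. The others were not tested, 15 as low data and 9 for too few reads. The most abundant isoform had an FPKM of 32.7 in CPE and 38.5 in SNE, or 35.2% of the gene's total in CPE and 34.9% in SNE. Of 19 isoforms with FPKM of at least 1 in either fraction, 7 had the higher value in CPE, with a summed FPKM of 31.3 in CPE and 5.32 in SNE, and 12 had the lower value in CPE, with a summed 61.4 in CPE and 105.0 in SNE. The value of THOC2 is a sum over these isoform estimates, none of them a call. The most abundant (status LOWDATA) had a log2 ratio of -0.23, itself near 0, and others leaned to either fraction. What set the ratio of the gene was not tested. The isoform rows name no annotated transcript, so their structures are not given.

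Beyond the 10 genes, 56 further genes of nuclear export in 5 lists were examined, in 55 rows, of which 50 were tested. Most concern mRNA, but the list of other export receptors includes genes for other cargo, such as XPO5. Of the 50, 34 were lower in CPE, 0 were higher and 16 were not called, with a median log2 ratio of -1.29, and 0 were higher at Cuffdiff's unadjusted p under 0.05. The share lies above the 52.3% of expressed loci with a symbol, but genes of a list are not replicates and no test was made over them. Differences between the lists were not tested either, and their genes were not set within span groups. The highest ratio among the tested rows was that of LENG8, of the TREX-2 list, which was not called. It had 26.3 in CPE and 20.0 in SNE (log2 ratio 0.39 in the authors' deposited table, q = 0.493). LUZP4 and the receptors NXF2, NXF2B, NXF3 and NXF5, paralogs of NXF1 and adaptors active mainly in germ cells or brain, had too few reads for the authors' test.

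Among the TREX-associated adaptors 11 of 14 tested genes were lower in CPE, beside 52.3% of expressed loci with a symbol, with a median of -1.27. ERH, a small partner of many nuclear RNA-binding proteins, was the most abundant and the lowest, at 136.1 in CPE and 786.4 in SNE (log2 ratio -2.53 in the authors' deposited table, q = 0.000706). NCBP3, a cap-binding partner listed under its older symbol C17orf85, had 19.7 in CPE and 39.7 in SNE (log2 ratio -1.01 in the authors' deposited table, q = 0.00853). In TREX-2, which joins transcription sites to the pore, 5 of 7 were lower in CPE. CETN2, a centrin, had 1.58 in CPE and 8.19 in SNE, ENY2 had 35.1 in CPE and 142.2 in SNE, and PCID2 had 25.4 in CPE and 58.2 in SNE. Their log2 ratios in the authors' deposited table were -2.37 (q = 0.000706), -2.02 (q = 0.000706) and -1.19 (q = 0.0228).

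Of 11 tested rows for factors that act at the nuclear pore, 5 were lower in CPE and 6 were not called, with a median of -0.97. Beside this count, 52.3% of expressed loci with a symbol were lower. GLE1, the activator of the pore helicase DDX19, had 3.84 in CPE and 16.6 in SNE (log2 ratio -2.11 in the authors' deposited table, q = 0.000706). TPR, a filament protein of the nuclear basket, shared its row with RNU6-1240P and had 58.7 in CPE and 115.2 in SNE (log2 ratio -0.97 in the authors' deposited table, q = 0.0499). NUP88, the most abundant, had 62.2 in CPE and 149.8 in SNE and was not called (log2 ratio -1.27 in the authors' deposited table, q = 0.104).

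Exon junction components and SR adaptors were lower in CPE for 9 of 11 genes, beside 52.3% of expressed loci with a symbol, with a median of -1.91. RNPS1, which joins the junction complex, shared its row with AC009065.2 and had 21.6 in CPE and 117.3 in SNE (log2 ratio -2.44 in the authors' deposited table, q = 0.000706). The export adaptor SRSF7 had 146.4 in CPE and 265.6 in SNE (log2 ratio -0.86 in the authors' deposited table, q = 0.000706). SRSF1, the most abundant gene of this list and counted in a row with 2 clone-named transcripts, had 218.2 in CPE and 432.4 in SNE (log2 ratio -0.99 in the authors' deposited table, q = 0.0168). Among other export receptors and their cofactors 4 of 7 tested genes were lower in CPE. NXT2, the paralog of NXT1, had 1.31 in CPE and 7.22 in SNE (log2 ratio -2.46 in the authors' deposited table, q = 0.000706), a ratio close to that of NXT1 itself. XPO5, which carries microRNA precursors, had 78.2 in CPE and 223.6 in SNE (log2 ratio -1.52 in the authors' deposited table, q = 0.0204). XPO1, the receptor for proteins with a leucine-rich export signal, had 218.8 in CPE and 320.5 in SNE and was not called (log2 ratio -0.55 in the authors' deposited table, q = 0.493).

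**Figure D5:**
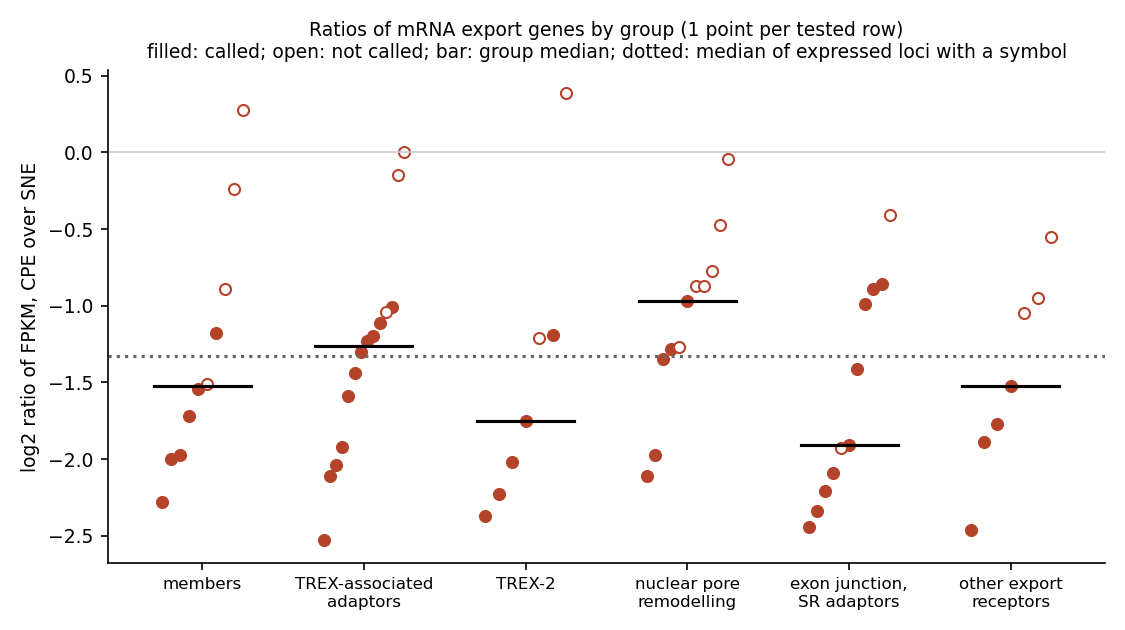
Log2 ratio of CPE over SNE for the 10 export genes and for 5 lists of further nuclear export genes, 1 point for each tested row, filled where called at q of at most 0.05 and open where not. Horizontal bars are group medians (from -1.91 for exon junction and SR adaptors to -0.97 for pore factors), the dotted line is the median of the 11388 expressed loci with a symbol (-1.33), and no called point lies above 0.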

How the data were processed

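RNA was measured in the chromatin pellet and soluble extracts of HEK293 nuclei. The authors aligned reads with TopHat2 and estimated and tested expression with Cuffdiff on hg19, per the submitters' processing notes, and for versions, annotation and library scaling the sources used here give nothing. The deposited FPKM values are 1 per locus and fraction, computed by the authors over samples, and the log2 ratio of CPE over SNE, p-value and q-value are the authors' own, per the file headers. The deposited test statistic, a score, was not used. The deposited q equals a Benjamini-Hochberg adjustment of the deposited p over the 192931 tested loci. From these, calls were counted (status OK, q at most 0.05), and no new test was made. Counting was tested on simulated data. Spans, overlaps and small nucleolar RNA sequences came from GENCODE 29 (GRCh38), matched by symbol or older symbol, with a span for 80.4% of expressed loci with 1 symbol, and the span of the APPRIS principal transcript was chosen after the members' values were seen. Near-identical transcripts were sought with BLAST 2.17.0 (at least 85% identity over 200 bases); the many short matches of THOC5 were not used. Region starts count from 1. All 10 genes, DDX39A, and from each list the most abundant and the extreme called genes were named. USP14, HCFC1R1, the antisense genes, SNORD117 and LENG8 were named after their values were seen. Members and lists were chosen with earlier results of these data known. Python 3.11.15, pandas 2.3.3, numpy 2.4.6 and scipy 1.17.1 were used.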

Additional observations from a re-analysis of the deposited data

How the results depend on the processing

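The count of 6 export genes lower in CPE was unchanged at q of at most 0.01, at FPKM of at least 1 in both fractions and at an absolute log2 ratio of at least 1, and became 5 when only rows with 1 symbol were counted. Centring ratios on the median of -1.33 of expressed loci with a symbol, which adds 1.33 to every log2 ratio, left 5 called genes on the soluble side and put 1 on the chromatin side (THOC3, whose ratio became 0.16), moved the members' median to -0.19, and put 11 called genes of the 5 lists on the chromatin side, against 23 on the soluble side. Only the sign was counted after centring, and the authors' q was not recomputed. The loci without a symbol higher in CPE in the export gene regions numbered 6 at q of at most 0.01 and 3 at FPKM of at least 1 in both fractions, where fewer loci enter. Other span measures, tried after the values were seen, put 5 (whole gene) or 7 (median coding transcript) of the 10 genes above the median of their span group, against 6. Pseudocounts of 0.1 and 1 left the members' median at -1.52 and -1.51. At a pseudocount of 1 the log2 ratio of NXT1 went from -2.28 to -2.02 and that of THOC6 from -1.72 to -1.59. The other 8 genes changed less. No paired analysis was possible because the tables hold no values per sample, and leaving out a replicate was not run for the same reason. Depth per sample is unknown, so no interval for counting error is given.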
